A study of Mus musculus with 4 samples.

Results

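The C/EBP genes encode transcription factors of the CCAAT/enhancer-binding protein group, and 5 of them were followed here, *Cebpa*, *Cebpb*, *Cebpd*, *Cebpg* and *Cebpz*. They were chosen by symbol with their measured change between the groups of this experiment already known, so their levels and changes are descriptions and carry no test. All 5 were among the 22063 genes listed, and 4 of them were among the 11727 genes that passed the filter on low counts, *Cebpa* being the exception. The cells were TKPTS cells, a mouse proximal tubule epithelial line that the labels call TKPT. The cells of all 4 libraries went through hypoxia/reoxygenation, with 24 h in 1% O2 and 12 h back at normal oxygen, and all were transfected. The si-NC group (replicates 2 and 3, labelled Scrambled, genotype WT) received a control siRNA, and the si-*Itgb6* group (replicates 1 and 3, labelled *Itgb6* knockdown) received an siRNA against *Itgb6*, the integrin beta subunit that pairs with the alphav chain to form integrin alphavbeta6. The question was which transcripts differed when the integrin was targeted in injured tubular cells.

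C/EBP proteins carry a basic region that contacts DNA and a leucine zipper through which they pair with each other or with other bZIP proteins. C/EBPalpha is best known from the maturation of hepatocytes, adipocytes and granulocytes, C/EBPbeta and C/EBPdelta from the response to cytokines and tissue injury, and C/EBPgamma, which lacks a strong activation domain, as a dimer partner and as a partner of ATF4 in the amino acid response. C/EBPzeta shares the CCAAT-binding name but is a nucleolar protein of ribosome assembly and has no bZIP domain.

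The libraries held 15435074 to 17220281 estimated counts. The targeted gene came first. Counts of *Itgb6* were 285 and 284 in the si-NC libraries, compared with 279 and 260 in those labelled si-*Itgb6*. In CPM, counts scaled to a common library size, this was 17.0 ± 0.730 against 16.9 ± 1.58 (mean ± SD, n = 2 each), with a log2 fold change of -0.0051 (SE 0.13), so its mRNA did not separate the groups in the way their labels state. Every direction below therefore compares libraries labelled si-*Itgb6* with libraries labelled si-NC. By western blot, the paper reports less of the integrin protein in hypoxic cells given the *Itgb6* siRNA, and it states that qPCR was also used to check the siRNA. Protein was not measured in these libraries. All 5 epithelial markers passed the filter, with a summed level of 2881 to 2888 FPKM (fragments scaled by transcript length and library size) in si-NC and 2739 to 2769 FPKM in si-*Itgb6*. Of 10 proximal tubule markers 5 passed, among them *Pax8* and *Aqp1*, summing to 154 and 179 FPKM in si-NC and to 192 and 167 FPKM in si-*Itgb6*. The transporters *Slc34a1*, *Slc5a2* and *Slc22a6* were at 0 and *Lrp2* and *Hnf4a* were near 0, so the defining transporters of the labelled cell type were absent. Macrophage markers summed to 92.6 and 100 FPKM in si-NC and to 93.2 and 84.5 FPKM in si-*Itgb6*, nearly all of it *Cd68*, while *Ptprc* and *Adgre1* were near 0. *Aqp1* was called higher in si-*Itgb6* (log2 fold change 0.59), all 5 epithelial markers were below 0 on that scale, 3 of them at an unadjusted p under 0.05 and 1 at an adjusted p under 0.05 in edgeR, with none past the fold threshold, and the part of these differences in the C/EBP values was not tested. Fibroblast, endothelial and distal nephron markers summed to at most 2.07 FPKM in any library.

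The sequences just before the start sites of *Cebpb* and *Cebpg*, the most abundant members, are shown as a description of their upstream elements. Any link between these elements and the measured values was not tested. RefSeq windows on GRCm38.p6 were found for 3 of the 5 members, *Cebpa*, *Cebpb* and *Cebpg*. Each run holds the 250 bases before the start and the first 30 after it, and capitals mark TATAAA on the given strand, and CCAAT or TGACG on either strand (ATTGG and CGTCA are their reverse forms). The *Cebpb* run is chr2:167688665-167688944 on the plus strand and the *Cebpg* run is chr7:35056537-35056816 on the minus strand.
Cebpb: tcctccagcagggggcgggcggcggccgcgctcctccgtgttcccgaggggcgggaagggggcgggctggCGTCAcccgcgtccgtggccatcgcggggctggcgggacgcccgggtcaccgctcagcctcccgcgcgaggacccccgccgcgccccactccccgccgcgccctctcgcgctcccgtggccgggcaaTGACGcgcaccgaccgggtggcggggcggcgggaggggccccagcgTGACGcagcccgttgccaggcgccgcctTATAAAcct
Cebpg: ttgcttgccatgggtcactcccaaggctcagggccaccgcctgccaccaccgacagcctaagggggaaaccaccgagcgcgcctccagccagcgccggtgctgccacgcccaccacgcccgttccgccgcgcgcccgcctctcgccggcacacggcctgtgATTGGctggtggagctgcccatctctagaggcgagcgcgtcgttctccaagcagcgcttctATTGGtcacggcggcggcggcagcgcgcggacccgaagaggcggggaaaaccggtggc

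The *Cebpb* window held TGACG, the core of the cyclic AMP response element, 3 times, with first bases 180, 53 and 7 bases before the start. It also held the GC box GGGCGG 5 times, at 238, 234, 202, 191 and 30 bases before the start, the first pair overlapping, and no CCAAT. Its TATAAA lay 22 bases past the annotated start. The *Cebpg* window held the CCAAT box, the letters that NF-Y binds, 2 times at 89 and 28 bases before the start, and had GGGCGG 1 time, at base 45 past the start and outside the printed run. It had neither TATAAA nor TGACG. The *Cebpa* window (chr7:35119043-35119322, plus strand) had TATAAA 30 bases before the start and none of the other marked letters. Of 32851 RefSeq windows of the same length, 8.3% held TATAAA on the given strand. On either strand, 37.4% held CCAAT, 20.8% TGACG and 35.7% GGGCGG. The C/EBP letters TTGCNNAA, searched on both strands (TTNNGCAA in reverse) and found in 10.8% of windows, occurred in none of the 3. This says only that these letters are not in these windows. The *Cebpb* window was 80.7% G and C, above 99.2% of all windows, against 71.7% for *Cebpg* and 67.3% for *Cebpa*.

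The genes differ in structure too. In the GENCODE annotation of GRCm38, *Cebpb* (ENSMUSG00000056501, chr2:167688915-167690418, plus strand), *Cebpa* (ENSMUSG00000034957, chr7:35119293-35121928, plus strand) and *Cebpd* (ENSMUSG00000071637, chr16:15887286-15891031, plus strand) each have 1 exon in their longest transcript. *Cebpg* (ENSMUSG00000056216, chr7:35046422-35056573, minus strand) has 2 exons and lies 62719 bases from *Cebpa*. *Cebpz* (ENSMUSG00000024081, chr17:78919006-78937066, minus strand) has 16. The longest transcripts range in GC content from 43.3% for *Cebpg* and 43.4% for *Cebpz* to 67.2% for *Cebpb*.

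Per length, the order of the mean levels over the 4 libraries was *Cebpb* at 55.2 FPKM, *Cebpg* at 37.0 FPKM, *Cebpz* at 15.6 FPKM, *Cebpd* at 0.919 FPKM and *Cebpa* far below. Among the tested genes these levels stood at percentile 86.7 for *Cebpb*, 80.8 for *Cebpg*, 62.7 for *Cebpz* and 11.1 for *Cebpd*. No member's range over the libraries met that of its neighbour in this order, but *Cebpb* and *Cebpg* came close in si-*Itgb6* replicate 3, at 39.8 and 35.4 FPKM. *Cebpe*, the granulocyte member of the family, had 0 counts in all 4 libraries, where 3 counts were taken as the floor of detection.

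**Figure D1:**
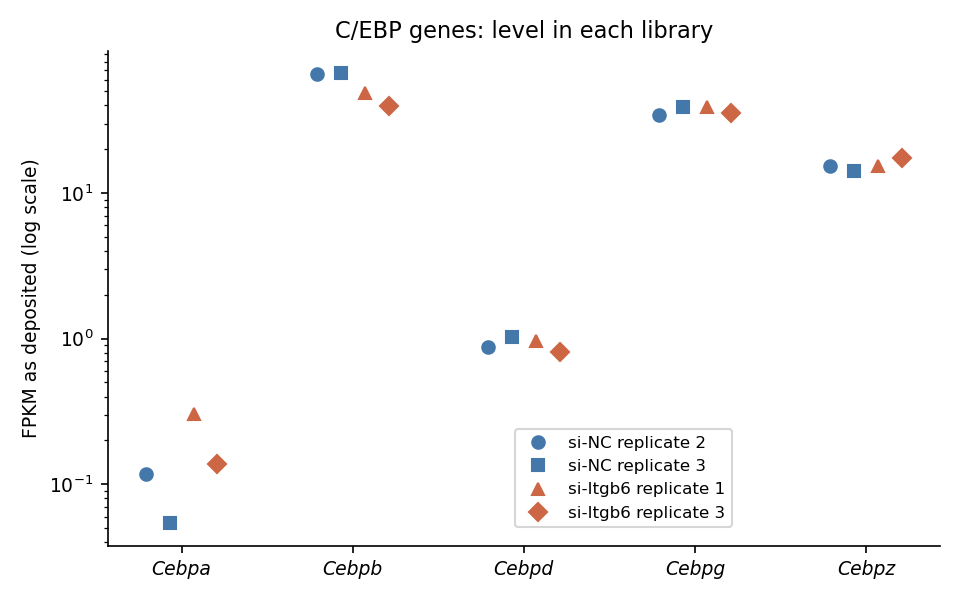
Level of each C/EBP gene in each library, in FPKM on a log axis, with 1 point per library and colours for si-NC and si-*Itgb6*. *Cebpb* lies between 39.8 and 66.5 FPKM with both si-NC libraries on top, *Cebpg* and *Cebpz* have mixed groups, *Cebpd* sits near 1 FPKM and *Cebpa* at 0.0540 to 0.303 FPKM.

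*Cebpb*, the member induced by cytokines and injury, was the one tested member whose groups did not overlap. Its counts were 1607 and 1722 in the si-NC libraries (replicates 2 and 3), compared with 1131 and 998 in the si-*Itgb6* libraries (replicates 1 and 3). In CPM these were 98.5 and 99.7 against 73.1 and 60.6, and in FPKM 65.9 and 66.5 against 48.7 and 39.8. Both si-NC libraries were high and nearly equal, both si-*Itgb6* libraries were lower and farther apart, and the groups did not overlap. The mean fell from 99.1 ± 0.822 to 66.8 ± 8.81 CPM (SD, n = 2), a change of -32.6% and a log2 fold change of -0.57 (SE 0.079). In bulk RNA, fewer cells with the transcript and less transcript per cell cannot be told apart.

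*Cebpb* was the only member called, by the study's thresholds of a fold change over 1.2 and an unadjusted p under 0.05 in edgeR's quasi-likelihood test. Of all tested genes 610 were called lower in si-*Itgb6* (5.2%) and 512 higher (4.37%), and 542 (4.62%) had a Benjamini-Hochberg adjusted p under 0.05 in that test. CPM values of the groups did not overlap in 5767 genes (49.2%), and among the tested members this held for *Cebpb* alone. Since the members were chosen on this contrast, nothing is read from their counts. Across 11709 genes the log2 fold change ran against the GC content of the transcript (Spearman's rho of -0.36, a description, since genes do not replicate each other), and with trends on GC content and length removed the *Cebpb* change was -0.36. A fold threshold of 1.5 would not call it.

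One neighbour shares bases with *Cebpb*. *Tmem189*, a membrane protein gene on the opposite strand, overlaps 312 of its 1504 exonic bases (20.7%), and the library type did not record strand, so reads from the shared stretch cannot be told apart. *Tmem189* had 1740 and 1686 counts in si-NC and 1444 and 1481 in si-*Itgb6*. Its groups did not overlap either, as in 49.2% of all tested genes. Its log2 fold change was -0.16 (SE 0.071, adjusted p = 0.221 by edgeR's quasi-likelihood F-test and Benjamini-Hochberg correction) and it was not called. Its part in the *Cebpb* value was not tested.

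*Cebpg*, the partner that lacks a strong activation domain, did not follow *Cebpb*. Its counts were 1545 and 1665 in the si-NC libraries, compared with 1687 and 1577 in si-*Itgb6* replicates 1 and 3. Its CPM values were 94.7 and 96.4 against 109 and 95.8, so si-*Itgb6* replicate 1 was high and the other 3 libraries lay together, with overlapping groups. The log2 fold change was 0.099 (SE 0.072), and it was 0.0025 without si-*Itgb6* replicate 1.

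*Cebpd*, the other acute phase member, was expressed at a low level. Its estimated counts were 52.85 and 66.67 in si-NC and 55.87 and 50.24 in si-*Itgb6*, and as estimates they need not be whole. These were 3.25 and 3.88 CPM against 3.62 and 3.04 CPM, with no order of the groups. The log2 fold change of -0.10 had an SE of 0.28, and its sign turned when si-NC replicate 3 (0.036) or si-*Itgb6* replicate 3 (0.022) was left out. *Spidr*, a DNA repair gene on the opposite strand, shares 562 of the 3746 exonic bases of *Cebpd* and had 1268.13 to 1533.76 estimated counts, far more than *Cebpd* itself. In every library the estimated counts of *Cebpd* and *Spidr* added to a whole number. Without strand information, reads from the shared stretch cannot be told apart, so the level and change of *Cebpd* may not be its own. The part of *Spidr* in the *Cebpd* value was not tested.

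*Cebpz*, the nucleolar namesake, had 968 and 972 counts in si-NC and 905 and 1045 in si-*Itgb6*. Its CPM values were 59.4 and 56.3 against 58.5 and 63.5, so the groups overlapped, with si-*Itgb6* replicate 3 the highest library. Its log2 fold change was 0.077 (SE 0.081). *Cebpzos*, a gene on the opposite strand whose far end overlaps that of *Cebpz* by 171 exonic bases, had 313 and 290 counts in si-NC and 210 and 286 in si-*Itgb6*, giving a log2 fold change of -0.21 (SE 0.14, adjusted p = 0.432 by edgeR's quasi-likelihood F-test and Benjamini-Hochberg correction). It was called with GC and length trends removed (-0.29) and with si-*Itgb6* replicate 3 left out (-0.40).

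*Cebpa*, the differentiation member, was at the edge of detection with 5 and 2 counts in si-NC and 11 and 6 in si-*Itgb6*. Both si-*Itgb6* libraries were above both si-NC libraries, at 0.711 and 0.364 against 0.307 and 0.116 CPM. Groups also did not overlap in 49.2% of the tested genes, to which *Cebpa* does not belong. The summed counts were 17 and 7, a ratio of 2.53 after library scaling with an exact Clopper-Pearson 95% interval of 0.996 to 7.21. That interval covers counting error only and takes in equal levels, so a difference in *Cebpa* was not shown by these counts.

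**Figure D2:**
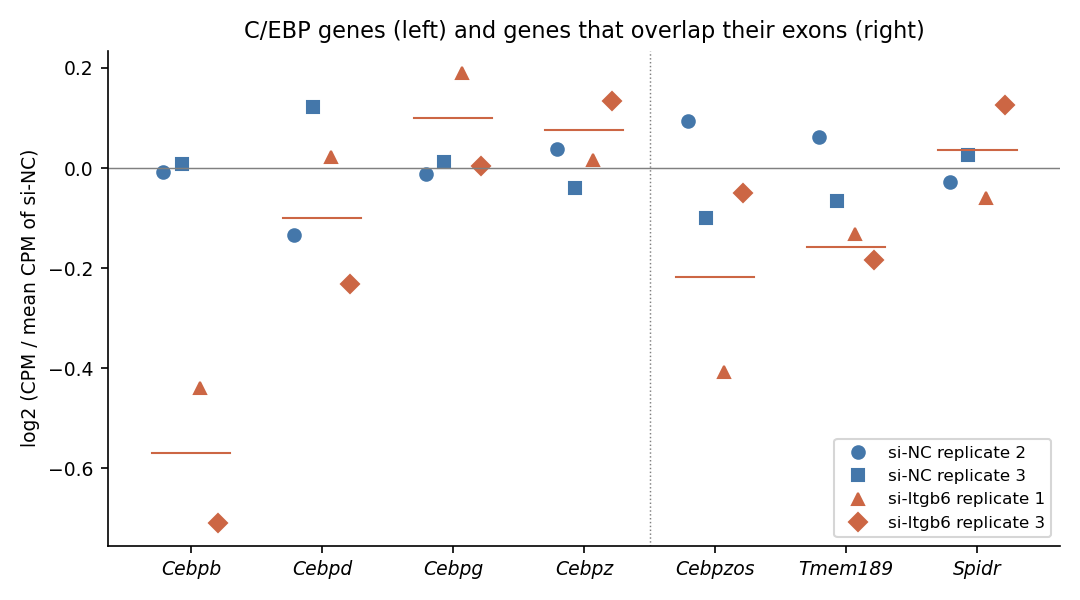
Each library's log2 CPM of the 4 tested C/EBP genes relative to that gene's si-NC mean, with 1 point per library and a line at the si-*Itgb6* mean, beside the genes that overlap their exons. Both si-*Itgb6* points of *Cebpb* lie below the si-NC points, and the points of *Cebpd*, *Cebpg* and *Cebpz* are mixed.

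The makeup of the followed bZIP members, pooled without *Ddit3*, also differed. The FPKM of *Cebpa*, *Cebpb*, *Cebpd* and *Cebpg* summed to 101 and 107 in si-NC replicates 2 and 3 and to 89.0 and 76.0 in si-*Itgb6* replicates 1 and 3. *Cebpb* gave 65.0% and 62.2% of that sum in si-NC and 54.7% and 52.3% in si-*Itgb6*. *Cebpg* gave most of the rest, 35.4% ± 1.95 against 45.2% ± 1.87 (SD, n = 2), while *Cebpd* stayed at about 1% and *Cebpa* below it. The ratio of *Cebpb* to *Cebpg* FPKM was 1.91 and 1.69 in si-NC and 1.25 and 1.12 in si-*Itgb6*. These are mRNA shares and follow from the same *Cebpb* values, and they say nothing of protein or of the isoforms that translation makes from 1 C/EBPbeta transcript.

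**Figure D3:**
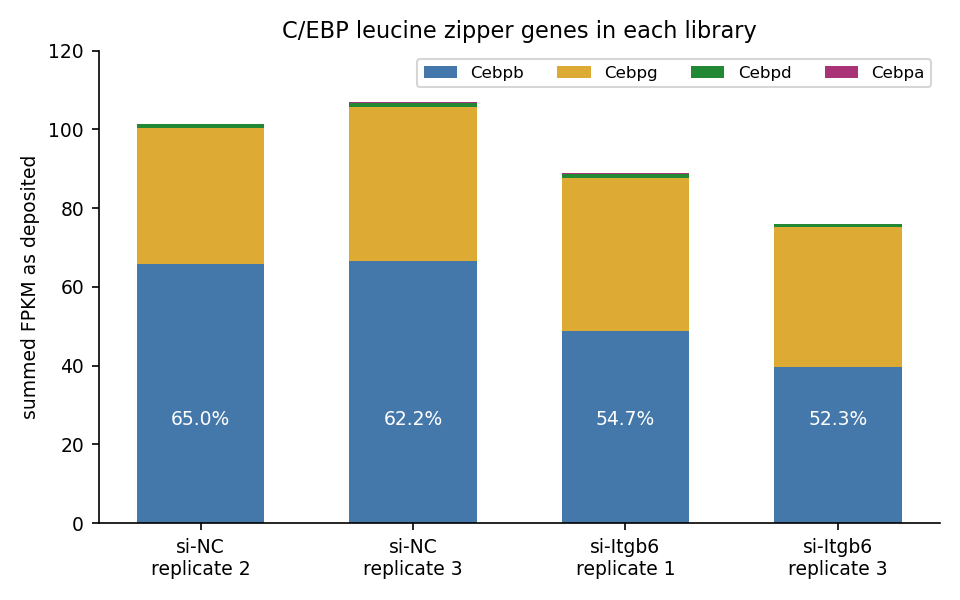
Summed FPKM of *Cebpa*, *Cebpb*, *Cebpd* and *Cebpg* in each library, as bars from 0 stacked by gene, with the *Cebpb* share printed in each bar. The sums run from 107 in si-NC replicate 3 down to 76.0 in si-*Itgb6* replicate 3, and the *Cebpb* segment is shorter in both si-*Itgb6* bars than in both si-NC bars.

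The change of each member under every way of processing that was tried is shown side by side. *Cebpb* kept a negative log2 fold change under every one, from -0.71 without si-*Itgb6* replicate 1 to -0.36 with GC and length trends removed. The values of *Cebpg* and *Cebpz* stayed above 0, and those of *Cebpd* fell on both sides of it.

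**Figure D4:**
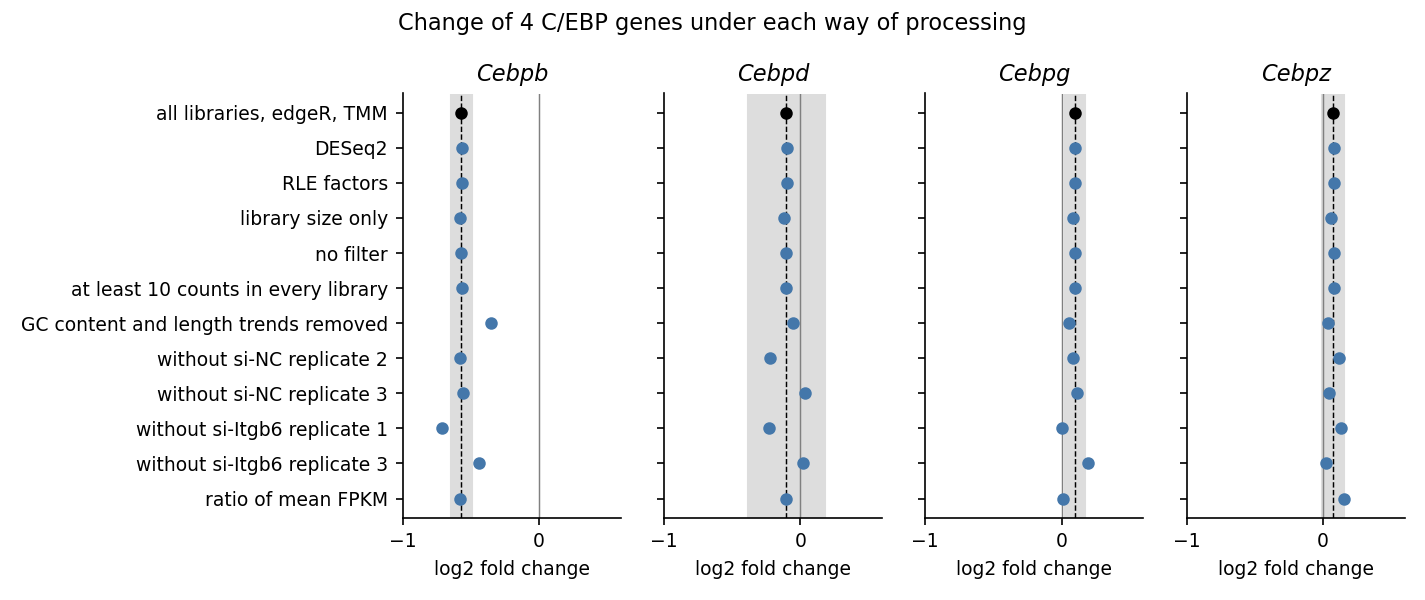
Log2 fold change (si-*Itgb6* against si-NC) of the 4 tested C/EBP genes under each alternative, 1 panel per gene, with the reported value as a line and ± 1 SE as a grey band. *Cebpb* stays between -0.71 and -0.36, whereas *Cebpd* crosses 0.

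Genes of bZIP proteins that pair with C/EBPs, other than the followed members, formed a list of 10, of which 7 passed the filter. None was called in either direction, 2 were lower and 1 higher at an unadjusted p under 0.05, and DESeq2 called 0. The median log2 fold change was -0.070, against 0.00017 over all tested genes. *Ddit3* encodes CHOP, the stress-induced partner that keeps C/EBPs from their usual sites. It had 1796 and 1933 counts in si-NC and 1391 and 1588 in si-*Itgb6*. Its CPM values did not overlap between the groups, as in 49.2% of all tested genes. Its log2 fold change of -0.25 (SE 0.069, adjusted p = 0.0271 by edgeR's quasi-likelihood F-test and Benjamini-Hochberg correction) was under the fold threshold. It was past that threshold with library size only in place of scaling by trimmed means (TMM) (-0.27), with GC and length trends removed (-0.33), with si-NC replicate 2 left out (-0.27) and with si-*Itgb6* replicate 3 left out (-0.30). Per length, *Ddit3* exceeded *Cebpb* in every library, by 2.04 and 2.08 times in si-NC and by 2.27 and 2.92 times in si-*Itgb6*. *Atf4*, the stress factor that pairs with C/EBPgamma and the most abundant of the list, had a log2 fold change of 0.078 and was not called.

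Genes that act upstream of C/EBP genes or on their proteins formed a list of 20, all tested. Of these, 3 (15%) were called higher and 0 lower, beside 4.37% and 5.2% of all tested genes. At an unadjusted p under 0.05 alone in edgeR, 3 were lower and 3 higher, and DESeq2 called 0 lower and 2 higher. The list was chosen with earlier results known, so nothing is read from this share. *Lifr*, the receptor chain for leukaemia inhibitory factor, rose by 0.51 on the log2 scale (adjusted p = 0.0519). *Fbxw7*, a ubiquitin ligase subunit that targets C/EBP proteins among others, rose by 0.81 (adjusted p = 0.0719), and *Trib2*, a pseudokinase that directs C/EBPalpha to degradation, by 0.65 (adjusted p = 0.220), all by edgeR's quasi-likelihood F-test and Benjamini-Hochberg correction. None of the 3 passed that adjustment. Deposited FPKM overlapped between the groups for *Lifr*, at 3.18 and 2.39 in si-NC against 2.83 and 3.42 in si-*Itgb6*. They also overlapped for *Trib2*, at 1.33 and 0.719 against 1.12 and 1.06, but not for *Fbxw7*, at 0.729 and 0.636 against 1.37 and 0.991. *Trib2* and *Fbxw7* were measured with few counts, 35 to 74 and 48 to 88 per library. *Trib2* was not called with si-NC replicate 2 (0.43) or si-*Itgb6* replicate 3 (0.49) left out, nor by DESeq2, and *Fbxw7* was not called without si-*Itgb6* replicate 1 (0.64). *Mapk3*, a kinase that phosphorylates C/EBPbeta, had a log2 fold change of -0.12 and was not called. The median was 0.11.

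Acute phase and inflammatory genes known as C/EBP targets numbered 25, of which 16 were tested. Of these, 3 were called higher and 0 lower. At an unadjusted p under 0.05 alone in edgeR, 2 were lower and 5 higher, and DESeq2 called 0 lower and 3 higher. The 3 called higher in the main fit were 18.75% of those tested, beside 4.37% of all tested genes called higher and 5.2% called lower. Here too the share is a description of a list chosen with earlier results known. *Ptgs2*, the inducible cyclooxygenase, rose by 0.46 on the log2 scale with an adjusted p of 3.24e-05 in edgeR's quasi-likelihood F-test and Benjamini-Hochberg correction. The chemokines *Cxcl1* (0.31, adjusted p = 0.0578) and *Ccl20* (0.28, adjusted p = 0.0595) passed the study's thresholds but not that adjustment, and neither was called once GC and length trends were removed. *Lcn2*, the tubular injury gene NGAL, changed by -0.17 on the log2 scale (adjusted p = 0.0322 in the same edgeR test), under the fold threshold. *C3*, the central complement component, was at 0.0031. Without si-NC replicate 3 the changes of *Cxcl1* and *Ccl20* were 0.19 and 0.25 and without si-*Itgb6* replicate 3 they were 0.14 and 0.21, and neither was called in these fits. The median of the list was 0.091.

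Of 17 differentiation and metabolic targets 7 were tested and none was called (at an unadjusted p under 0.05, 2 were lower and 1 higher, and DESeq2 called 0), with a median of 0.042. *Scd1*, a fatty acid desaturase, and *Cdkn1a*, the cell cycle inhibitor p21, had log2 fold changes of 0.11 and 0.042. Of these 17 genes 5, such as *Adipoq* and *G6pc*, were at 0 in all libraries.

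The 17 stress genes shared by ATF4 and C/EBPgamma were all tested, with a median of 0.022. Only *Slc7a11*, the cystine transporter chain, was called, at 0.27 on the log2 scale (adjusted p = 0.0659 by edgeR's quasi-likelihood F-test and Benjamini-Hochberg correction), from counts that are not whole. It was not called with library size only in place of TMM scaling (0.26), with GC and length trends removed (0.17), or with si-NC replicate 3 (0.22) or si-*Itgb6* replicate 3 (0.24) left out. *Phgdh*, of serine synthesis, and *Sars*, a seryl-tRNA synthetase, were at 0.052 and 0.067. Of the 24 nucleolar ribosome assembly factors, the company of C/EBPzeta, *Mdn1* rose by 0.34 (adjusted p = 0.119 by the same edgeR test with Benjamini-Hochberg adjustment) and was the only one called, with a median of 0.10. *Mdn1* was not called with si-NC replicate 3 (0.26) or si-*Itgb6* replicate 3 (0.31) left out. The abundant nucleolar proteins *Npm1* and *Ncl* had log2 fold changes of 0.21 and 0.16, under the fold threshold, with adjusted p = 0.0038 and 0.0482 in that test, and *Npm1* was called without si-*Itgb6* replicate 1 (0.30). None of the 3 NF-Y subunits, which bind the CCAAT box marked in the *Cebpg* run, was called (at an unadjusted p under 0.05, 1 was lower, and DESeq2 called 0), with *Nfya* at -0.22 and *Nfyc* at 0.12. In all, the lists held 8 genes called higher and 0 called lower, and 5 of the 8 were still called with GC and length trends removed. Over all tested genes 4.37% were called higher and 5.2% lower. The lists were chosen with earlier results of these data known, so nothing is read from these counts.

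**Figure D5:**
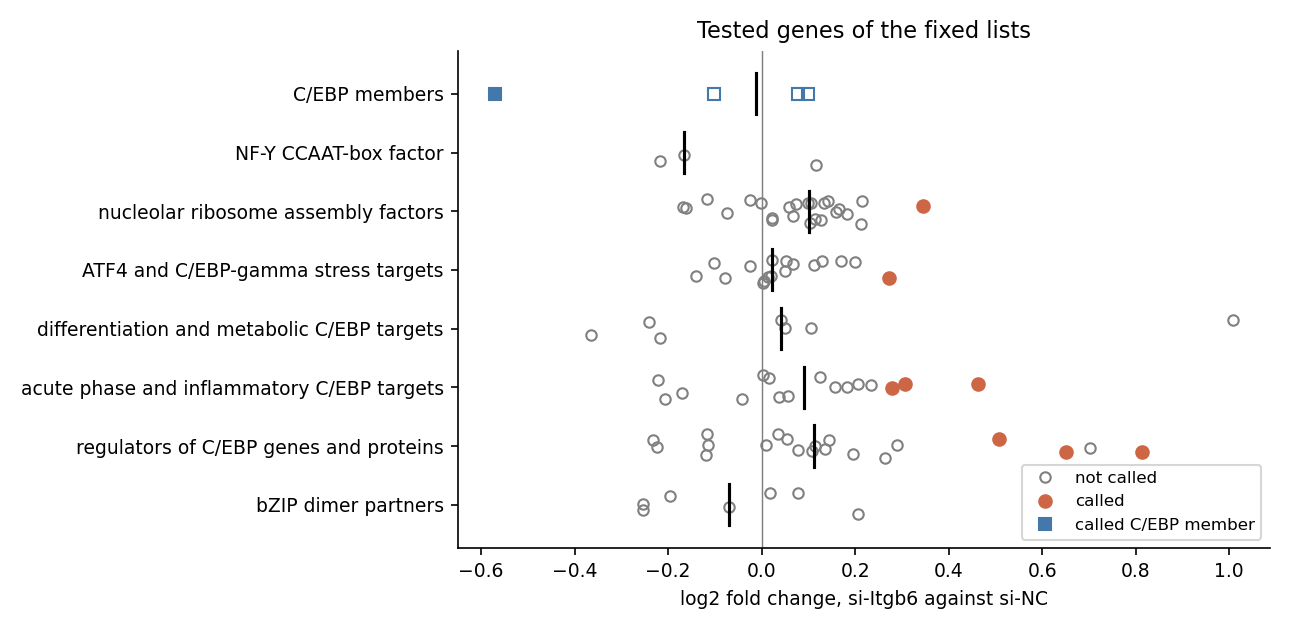
Log2 fold change (si-*Itgb6* against si-NC) of each tested gene of the lists, 1 row per list, with filled symbols for called genes and a vertical bar at the list's median. *Cebpb* at -0.57 is the only filled symbol left of 0, and the 8 filled list genes lie between 0.27 and 0.81.

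The genes whose pattern over the 4 libraries was most like that of *Cebpb* were *Man1c1*, a Golgi mannosidase, *Zbtb7c*, a zinc finger gene, and *Pidd1*, a p53-induced death domain gene. Their Euclidean distances on log2 CPM centred per gene were 0.0719, 0.0817 and 0.0873, and 6 of 11726 genes lay within 0.1. All 3 were measured with few counts, *Pidd1* with 46 to 78 per library, *Man1c1* with 23 to 39 and *Zbtb7c* with 12 to 20, so the likeness is a description of these libraries.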

How the data were processed

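Polyadenylated RNA was sequenced in 4 libraries as paired ends without strand information. The authors deposited, per gene and library, estimated counts that are not always whole (1447 to 1500 genes per library) and FPKM values. The aligner, counter and genome build are not given in the sources used here. Ensembl identifiers were matched to GENCODE vM21 (99.6% found).

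Estimated counts were rounded, filtered with filterByExpr (minimum count 10, minimum total 15), scaled by TMM and fitted with edgeR 4.0.16 (glmQLFit, glmQLFTest) in R 4.3.3, over all 4 libraries with no covariate. The common biological coefficient of variation was 0.0551. Genes were called at a fold change over 1.2 and an unadjusted p under 0.05, as in the study, and Benjamini-Hochberg adjustment ran over all 11727 tested genes. CPM used TMM scaling, and levels between genes used the deposited FPKM. DESeq2 1.42.0 was an alternative. The fit was tested on simulated data.

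The members and gene lists were chosen with earlier results of these data known. Named genes were the 5 members, *Cebpe* and *Cebpzos*, every called gene of each list and its 2 most abundant uncalled genes, genes overlapping a member, and the 3 nearest patterns, except 1 abundant uncalled gene that is not reported here. The genes listed at 0 were also named after their values were seen where the rule did not name them. The labels do not say whether replicates were separate cultures. The study's general statement of biologically independent replicates gives more per experiment than were sequenced here, so p-values are taken to measure the spread between these libraries, which may be technical. For a single value, 2 against 2 libraries allow no exact permutation p below 0.333.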

Additional observations from a re-analysis of the deposited data

How the results depend on the processing

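No paired analysis was possible because the groups share only 1 replicate number. *Cebpb* was lower under every alternative, -0.36 with GC and length trends removed, and from -0.71 (without si-*Itgb6* replicate 1) to -0.44 (without si-*Itgb6* replicate 3) when 1 library was left out. The same ranges were 0.0025 to 0.19 for *Cebpg*, -0.23 to 0.036 for *Cebpd* and 0.019 to 0.13 for *Cebpz*, whose ratio of mean FPKM gave 0.16 on the log2 scale. With a fold change over 1.5, 0 members were called lower. Calls of members under the other settings are not read, since the members were chosen with this contrast known. Genes called lower numbered 383 with DESeq2, 295 by adjusted p under 0.05 and 110 with a fold over 1.5, and those called higher 320, 247 and 125. Leaving out 1 library gave 402 (without si-NC replicate 2) to 768 (without si-*Itgb6* replicate 1) lower and 338 (without si-NC replicate 2) to 645 (without the other si-NC library) higher. Genes of the lists called lower numbered 2 with library size only, 2 with GC and length trends removed, 3 by adjusted p and 1 to 3 with 1 library left out. Those called higher numbered 3 by adjusted p, 2 with a fold over 1.5 and 3 to 10 with 1 library left out. The sign turned for *C3* (-0.012 with library size only, -0.017 without si-*Itgb6* replicate 3, and -0.049 to 0.060 with any 1 library left out). For the 8 called list genes, 64 of 80 refits kept the call and 16 lost it, with 0 changes of sign. The causes were not tested. Counts under 20 per library limit *Cebpa*, and an SE of 0.28 limits *Cebpd*.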

Other observations

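The deposited annotation marks 53 genes as bZIP transcription factors, a list taken up after the data were seen, and 39 of them were tested. By mean FPKM among all 53, tested or not, *Cebpb* ranked 6, *Cebpg* 10, *Cebpd* 37 and *Cebpa* 41, behind *Atf4*, *Ddit3*, *Junb*, *Jund* and *Maff* at the top. Of the 39, *Cebpb* and *Jund*, an AP-1 subunit, were called lower, *Nfe2l2*, the oxidative stress factor NRF2, was called higher, and the median log2 fold change was -0.029. Over all tested genes 5.2% were called lower and 4.37% higher. The log2 fold change of *Jund* was -0.34 (adjusted p = 0.00266) and that of *Nfe2l2* 0.30 (adjusted p = 0.0313), by edgeR's quasi-likelihood F-test and Benjamini-Hochberg correction. Among the most abundant bZIP genes, *Junb* (-0.23, adjusted p = 0.0161) and *Nfe2l1* (-0.22, adjusted p = 0.0324 in that test) were also lower, under the fold threshold. *Atf4* and *Maff* (0.065) were above 0 and not called. *Junb*, *Nfe2l1* and *Maff* were named after their values were seen.

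*Fasn*, the fatty acid synthase gene of the metabolic list, had a log2 fold change of -0.24, under the fold threshold, with an adjusted p of 0.0038 in the same edgeR test. It was named after its value was seen.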
